A study of Mus musculus with 30 samples.

Results

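The 10 genes described here make, break down or gauge the polyamines in mouse cells: Odc1, Amd1, Srm, Sms, Sat1, Smox, Paox, Azin1, Oaz1 and Dhps. They were chosen by name, as the core enzymes and regulators of the pathway, and all 10 were found among the 55011 genes counted in the mTEChi files and among the 35999 gene symbols of the B6 Aire-GFP+ files. RNA was sequenced from medullary thymic epithelial cells (mTECs) of female C57BL/6J mice aged 4 to 6 weeks, in libraries of 1000 sorted cells. The mTEChi libraries, from mTECs of the mature type with high MHC class II, formed 8 groups of 2: WT mice injected intraperitoneally with spermidine or with PBS, Aire-KO mice injected with spermidine or with PBS, WT mice injected with topotecan, a topoisomerase I inhibitor, or with its DMSO control, and Foxn1-cre mice that were Nfe2l2 fl/fl or Nfe2l2 +/+. Foxn1-cre is active in thymic epithelium, and both Nfe2l2 groups carried it. A separate set of Aire-GFP+ mTECs, sorted on a fluorescent reporter of Aire, held 2 Aire-KO and 3 WT libraries. These are 21 of the 30 samples of the series, and the 6 NOD and 3 F1 samples were not analysed here. The labels state neither the doses nor the times of injection.

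Polyamines are small, positively charged amines that bind nucleic acids and are needed for growth and translation. Odc1 encodes ornithine decarboxylase, which makes putrescine and is the rate-limiting step, and Amd1 encodes the enzyme that makes the aminopropyl donor, decarboxylated S-adenosylmethionine. Srm and Sms encode spermidine synthase and spermine synthase. Sat1 acetylates spermidine and spermine, Paox oxidises the acetylated forms and Smox oxidises spermine directly. Oaz1 encodes antizyme, which binds ornithine decarboxylase and sends it to the proteasome, and Azin1 encodes the antizyme inhibitor. Dhps uses spermidine to make hypusine in the translation factor eIF5A. Much of the known feedback by polyamines acts on translation, splicing and protein turnover, which gene counts do not measure.

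The promoters of Odc1, Sat1 and Oaz1 are printed because these 3 genes passed the test as higher in Aire-KO Aire-GFP+ cells, as described below. Oaz1 did not pass under every scaling of the libraries, and in mTEChi only Sat1 passed. The genes lie at chr12:17544794-17551505 (+, Odc1), chrX:155213132-155216449 (−, Sat1) and chr10:80826656-80829290 (+, Oaz1) in the GENCODE annotation of GRCm38. Each sequence is the 250 bases before the gene's start in RefSeq (GRCm38.p6), read 5′ to 3′ on the gene's strand: chr12:17544623-17544872 (+) for Odc1, chrX:155216450-155216699 (−) for Sat1 and chr10:80826406-80826655 (+) for Oaz1. For Odc1 the 2 annotations place the start differently, so its window from chr12:17544794 onward lies inside the GENCODE gene. Capitals mark the longest run of alternating purines and pyrimidines (the first, where runs were equally long), the classic sequence of left-handed Z-DNA, a form that spermidine is known to stabilise in the test tube.
Odc1 promoter: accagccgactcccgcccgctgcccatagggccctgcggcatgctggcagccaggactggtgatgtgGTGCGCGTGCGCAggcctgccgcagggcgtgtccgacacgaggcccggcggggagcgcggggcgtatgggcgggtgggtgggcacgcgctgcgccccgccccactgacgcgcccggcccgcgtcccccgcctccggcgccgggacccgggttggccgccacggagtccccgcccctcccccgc
Sat1 promoter: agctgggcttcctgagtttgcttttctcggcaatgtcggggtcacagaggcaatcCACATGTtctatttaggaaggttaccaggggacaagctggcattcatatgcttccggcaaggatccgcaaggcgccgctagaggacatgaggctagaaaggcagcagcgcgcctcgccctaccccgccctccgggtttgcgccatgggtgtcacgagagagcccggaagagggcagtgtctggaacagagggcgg
Oaz1 promoter: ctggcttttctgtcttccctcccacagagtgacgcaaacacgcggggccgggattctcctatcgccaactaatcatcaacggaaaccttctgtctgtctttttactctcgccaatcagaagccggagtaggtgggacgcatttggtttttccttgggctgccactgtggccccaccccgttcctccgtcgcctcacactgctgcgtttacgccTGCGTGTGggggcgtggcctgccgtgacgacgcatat
The run spanned 13 bases in the Odc1 promoter (183 to 171 bases before the start), 7 bases in Sat1 and 8 bases in Oaz1; the Sat1 and Oaz1 windows each held 2 runs of that length, the Odc1 window 1. Over 32841 RefSeq promoters of the same length the median longest run was 7 bases, and 8.12% held a run of at least 12. CACGTG, the E-box read by Myc-family factors and identical on both strands, stood in 6.02% of all promoters and, among the members, in 1 of the Sms windows. TATAA, searched on both strands, stood in 22.8% of all promoters and, among the members, in Amd1 only. The table held promoters for 8 of the 10 members, without Srm and Azin1. Z-DNA and factor binding were not measured.

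Library depth ran from 2027205 to 5724045 gene counts in mTEChi and from 6615295 to 12682072 in the Aire-GFP+ libraries. All 13 mTEC markers examined were detected in every library. Aire itself does not check the knockout, because reads still fell on it: 4096 to 5075 CPM (counts per 1000000, scaled with TMM factors) in the 4 Aire-KO mTEChi libraries against 1621 to 1814 CPM in the 4 WT libraries given spermidine or PBS. Nfe2l2 likewise had 105.5 and 86.6 CPM in fl/fl libraries against 90.7 and 91.4 CPM in +/+ libraries, so its gene count does not show the deletion. Nothing in the labels ties the 2 libraries of a group to separate animals, so p-values measure the spread between these libraries.

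**Figure D1:**
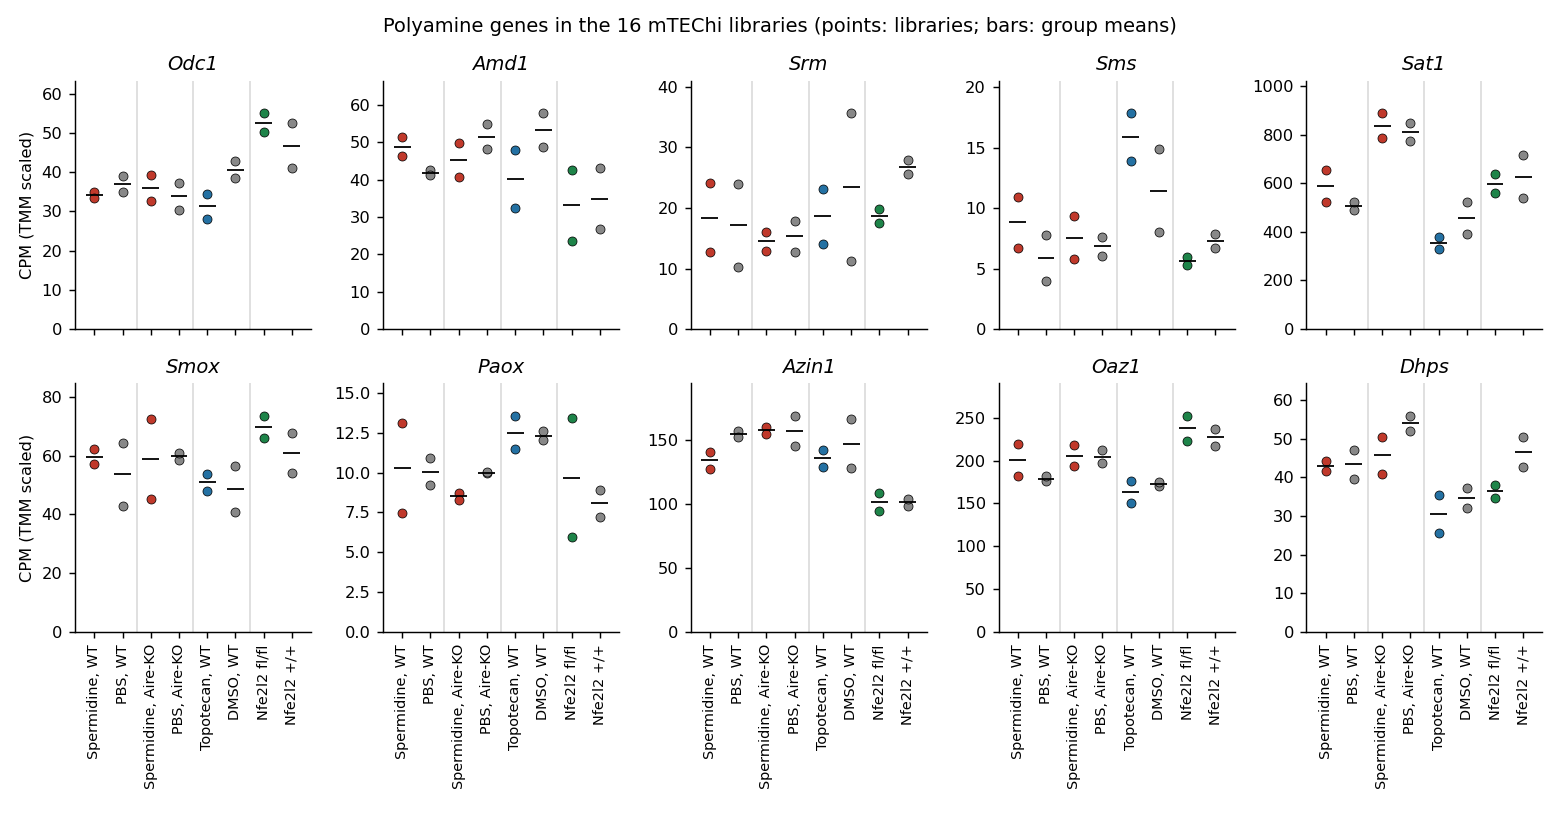
Normalised counts (CPM) of the 10 polyamine genes in the 16 mTEChi libraries, 1 panel per gene and 1 point per library, by group, with a dash at each group's mean. Sat1 stands highest in the 4 Aire-KO libraries (775 to 887 CPM) and lowest in the 2 topotecan libraries (329 and 380 CPM).

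Sat1, of breakdown, and Oaz1, of feedback, were the highest of the members in mTEChi. Per kilobase of exon, over the 16 libraries, Sat1 was highest, with a median of 198 CPM (119 to 320 CPM), and Oaz1 followed with 76.4 CPM (58.9 to 98.8 CPM). Neither range overlapped the next. Azin1, Dhps, Smox, Amd1, Odc1 and Srm came next with medians between 22.7 CPM (Azin1) and 11.0 CPM (Srm), in an order in which each neighbour overlapped the next. Paox and Sms were lowest, at medians of 2.04 and 1.28 CPM, and overlapped each other. Their raw counts were small, with 16 to 76 reads per library for Paox and 11 to 56 for Sms, against 21 to 131 for Srm. In the 3 WT Aire-GFP+ libraries, on the authors' TPM scale, Oaz1 (median 1052 TPM) and Sat1 (932 TPM) again led, followed by Amd1 (67.9 TPM) and Odc1 (51.0 TPM), which overlapped, and Paox was lowest (6.96 TPM). The 2 sets were normalised separately, and a difference between them was not tested.

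By experiment, Azin1 had 94.6 and 109 CPM in the Nfe2l2 fl/fl libraries and 98.4 and 104 CPM in the +/+ libraries, all below the other 12 mTEChi libraries (128 to 169 CPM). Oaz1 had 253 and 223 CPM in fl/fl libraries and 237 and 218 CPM in +/+ libraries, against 151 to 220 CPM in the other 12, so that the ranges touched. A difference between the experiments was not tested. These 4 libraries share the Foxn1-cre allele and an experiment, which cannot be told apart.

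Spermidine injection left every polyamine gene without a detectable change in mTEChi, in WT and in Aire-KO mice alike. Odc1, the gene of the rate-limiting enzyme, had 35.1 and 33.3 CPM in spermidine WT libraries against 39.0 and 34.9 CPM in PBS WT libraries. In Aire-KO mice it had 39.3 and 32.6 CPM with spermidine against 37.3 and 30.4 CPM with PBS. The spermidine and PBS values overlapped in both genotypes. Across both genotypes the Odc1 fold was 0.993, with a 95% interval of 0.790 to 1.25.

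Sat1, the acetylase of breakdown, had 522 and 653 CPM in spermidine WT libraries against 489 and 523 CPM in PBS WT libraries. Among Aire-KO libraries it had 887 and 785 CPM with spermidine against 845 and 775 CPM with PBS. One spermidine library in each genotype was the highest of its 4, and the other lay within the PBS range, so the groups overlapped. The fold was 1.09 (0.918 to 1.30).

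None of the 10 members passed an adjusted p of 0.05 in edgeR's quasi-likelihood test with Benjamini-Hochberg adjustment, against 0% of all 18418 genes tested. At an unadjusted p under 0.05 there were 0 members and 820 of all genes, and DESeq2 called 2 genes and limma-voom 0 of all genes, with no member among them. The intervals bound what these libraries could have shown. For Azin1 the fold was 0.933 (0.797 to 1.09), for Oaz1 1.06 (0.919 to 1.22), for Dhps 0.917 (0.732 to 1.15), for Smox 1.04 (0.800 to 1.36) and for Amd1 1.01 (0.740 to 1.38). They were widest for the genes with few reads: Sms 1.29 (0.763 to 2.18), Paox 0.929 (0.579 to 1.49) and Srm 1.00 (0.571 to 1.76). For Srm the spread over the 16 mTEChi libraries (SD 37.2% of the mean) exceeded that of counting alone (12.5%). The members' median log2 fold change was 0.01, beside −0.01 over all genes.

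**Figure D2:**
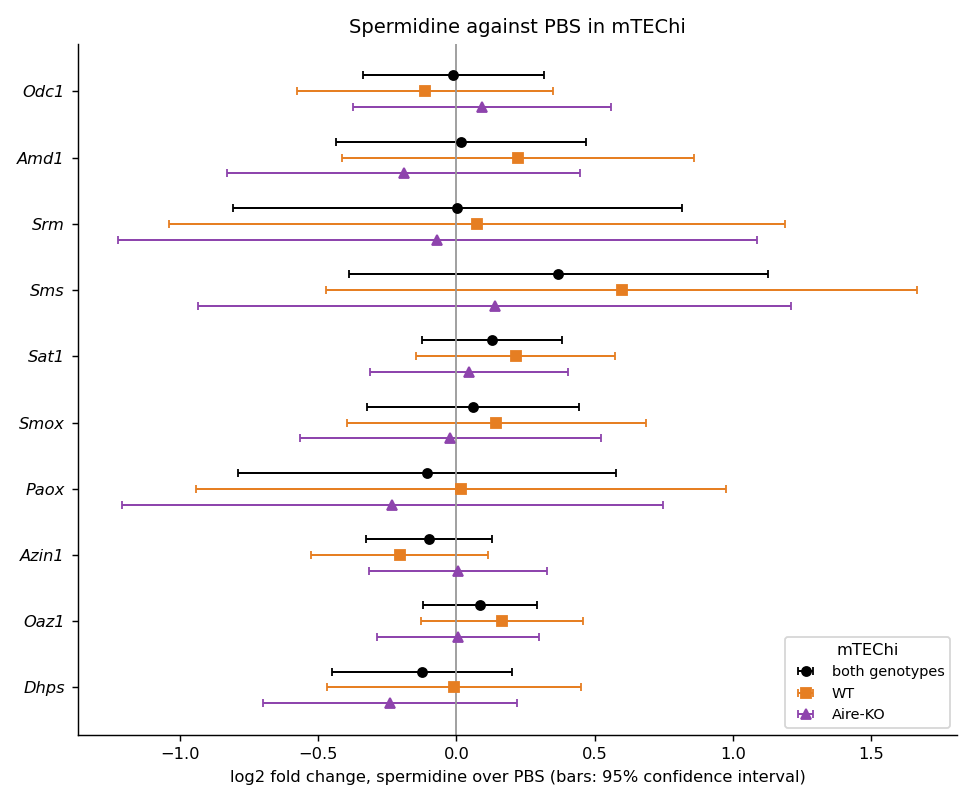
Log2 fold change of each polyamine gene, spermidine over PBS, in WT mTEChi, in Aire-KO mTEChi and over both genotypes, with 95% intervals of the edgeR fit. All intervals cross 0, and those of Sms, Paox and Srm are the widest.

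Within single genotypes the groups of 2 did not overlap for 2 of 10 members in WT and 2 of 10 in Aire-KO mice, beside 32.8% and 35.9% of all genes, so that separation without a call was common. In WT mice, where 0% of all genes were called, Amd1 had 51.3 and 46.4 CPM with spermidine against 42.6 and 41.2 CPM with PBS (fold 1.17, 0.750 to 1.81, adjusted p = 0.999). Azin1 had 141 and 128 CPM with spermidine against 157 and 153 CPM with PBS (fold 0.867, 0.694 to 1.08, adjusted p = 0.999). In Aire-KO mice, where 0.00543% of all genes were called and no member was, Dhps (50.5 and 40.9 CPM against 56.0 and 52.2 CPM) and Paox (8.74 and 8.28 CPM against at least 9.98 CPM) were lower in both spermidine libraries than in both PBS libraries. Neither passed in edgeR (adjusted p = 1.00 each). The difference of the spermidine effects between Aire-KO and WT mice was tested as an interaction, which called 0 members and 0% of all genes. Its largest member values were −0.46 for Sms and −0.41 for Amd1 on the log2 scale (adjusted p = 1.00 each). Haemoglobin and other erythroid markers summed to 35.5 to 89.6 CPM in spermidine WT libraries against 131 to 300 CPM in PBS WT libraries, and in Aire-KO mice to 62.1 to 186 CPM with spermidine against 91.1 to 111 CPM with PBS. In Aire-KO mice thymocyte markers summed to 140 to 146 CPM with spermidine against 67.7 to 71.9 CPM with PBS, endothelial markers to 89.0 to 95.2 CPM against 56.0 to 75.3 CPM, cortical epithelial markers to 1113 to 1224 CPM against 1037 to 1066 CPM and cell cycle genes to 1111 to 1127 CPM against 1298 to 1638 CPM, and 0 genes of these lists were called. Their part in these values was not tested.

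Of 37 other genes of polyamine, arginine and methionine metabolism, polyamine transport and eIF5A, 35 were tested, and none passed with spermidine over both genotypes in edgeR (0 at an unadjusted p under 0.05). With each genotype alone none passed either, and 3 genes in WT and 3 in Aire-KO mice had an unadjusted p under 0.05 (709 and 759 of all 18418 genes). Enoph1, an enzyme of methionine salvage that was singled out after its values were seen, was on both of these lists in opposite directions: its fold was 1.43 (1.03 to 1.97) in WT and 0.639 (0.462 to 0.882) in Aire-KO mice. The interaction for Enoph1 was −1.16 on the log2 scale and did not pass (adjusted p = 1.00).

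Loss of Aire was accompanied by more Sat1 RNA in mTEChi, and by no detectable change in the other 9 members. The 4 Aire-KO libraries had 887, 785, 845 and 775 CPM of Sat1, against 522, 653, 489 and 523 CPM in the 4 WT libraries. Every Aire-KO library stood above every WT library, and 26.4% of all genes likewise had groups that did not overlap. Over both treatments Sat1 was 1.51-fold higher (1.27 to 1.80; log2 0.59, SE 0.119, adjusted p = 0.00251 in edgeR). It was 1 of 10 members called higher, beside 10.3% of all genes called higher, 12.5% called lower and 22.8% called in either direction, a share near the background. In the PBS libraries alone Sat1 was 1.60-fold higher (1.25 to 2.05, adjusted p = 0.0193), where 5.21% of all genes were called higher and 5.08% lower, but the call was lost in each of the 4 fits that left out 1 library (log2 0.62 to 0.73, largest adjusted p = 0.137) and with unscaled library totals (log2 0.49, adjusted p = 0.0744). These 2 comparisons share the PBS libraries. In bulk RNA, more cells of a type and more RNA per cell cannot be told apart.

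Odc1 did not follow Sat1 in mTEChi. It had 39.3, 32.6, 37.3 and 30.4 CPM in Aire-KO libraries against 35.1, 33.3, 39.0 and 34.9 CPM in WT libraries, and the groups overlapped throughout. The fold was 0.980 (0.781 to 1.23, adjusted p = 0.915 in edgeR). Oaz1 (fold 1.09, 0.940 to 1.25), Azin1 (1.09, 0.933 to 1.28), Dhps (1.15, 0.920 to 1.44), Amd1 (1.07, 0.780 to 1.46) and Smox (1.05, 0.802 to 1.36) had intervals that included 1. The members' median log2 fold change was 0.08, beside −0.05 over all genes.

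In B6 Aire-GFP+ mTECs Odc1, Sat1 and Oaz1 were called higher in Aire-KO libraries, Oaz1 not under every scaling. Odc1 had 185 and 190 CPM in the 2 Aire-KO libraries against 66.9, 69.9 and 61.5 CPM in the 3 WT libraries. The 2 groups were far apart and each was tight. Odc1 was 2.83-fold higher (2.36 to 3.40; log2 1.50, SE 0.114, adjusted p = 8.22e-05 in edgeR).

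Sat1 had 1473 and 1768 CPM in Aire-KO against 565, 764 and 749 CPM in WT Aire-GFP+ libraries, again without overlap. It was 2.34-fold higher (1.86 to 2.95; log2 1.23, SE 0.145, adjusted p = 5.17e-04). Oaz1 had 842 and 863 CPM in Aire-KO against 686, 588 and 573 CPM in WT libraries, with both Aire-KO libraries on top. It was 1.39-fold higher (1.17 to 1.64; log2 0.47, SE 0.105, adjusted p = 0.00856).

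These 3 of the 10 members were called higher, beside 19.0% of all 17923 genes called higher, 22.3% called lower and 41.3% called in either direction, so differing between the genotypes was common in these libraries. The members' median log2 fold change was 0.39, beside −0.12 over all genes. The scaling of the libraries mattered. With unscaled library totals the median over all genes moved to −0.51 and the split of called genes to 1591 higher and 6250 lower, against 3410 higher and 4000 lower with TMM scaling. Under those totals Odc1 (log2 0.94, adjusted p = 0.00208) and Sat1 (log2 0.68, adjusted p = 0.0250) were still called higher, and both kept their call in all 14 alternatives run. Oaz1 did not (log2 0.07, adjusted p = 0.570), and on log2(TPM + 1) values, an alternative chosen after seeing the data, its sign turned (−0.042, adjusted p = 0.773).

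**Figure D3:**
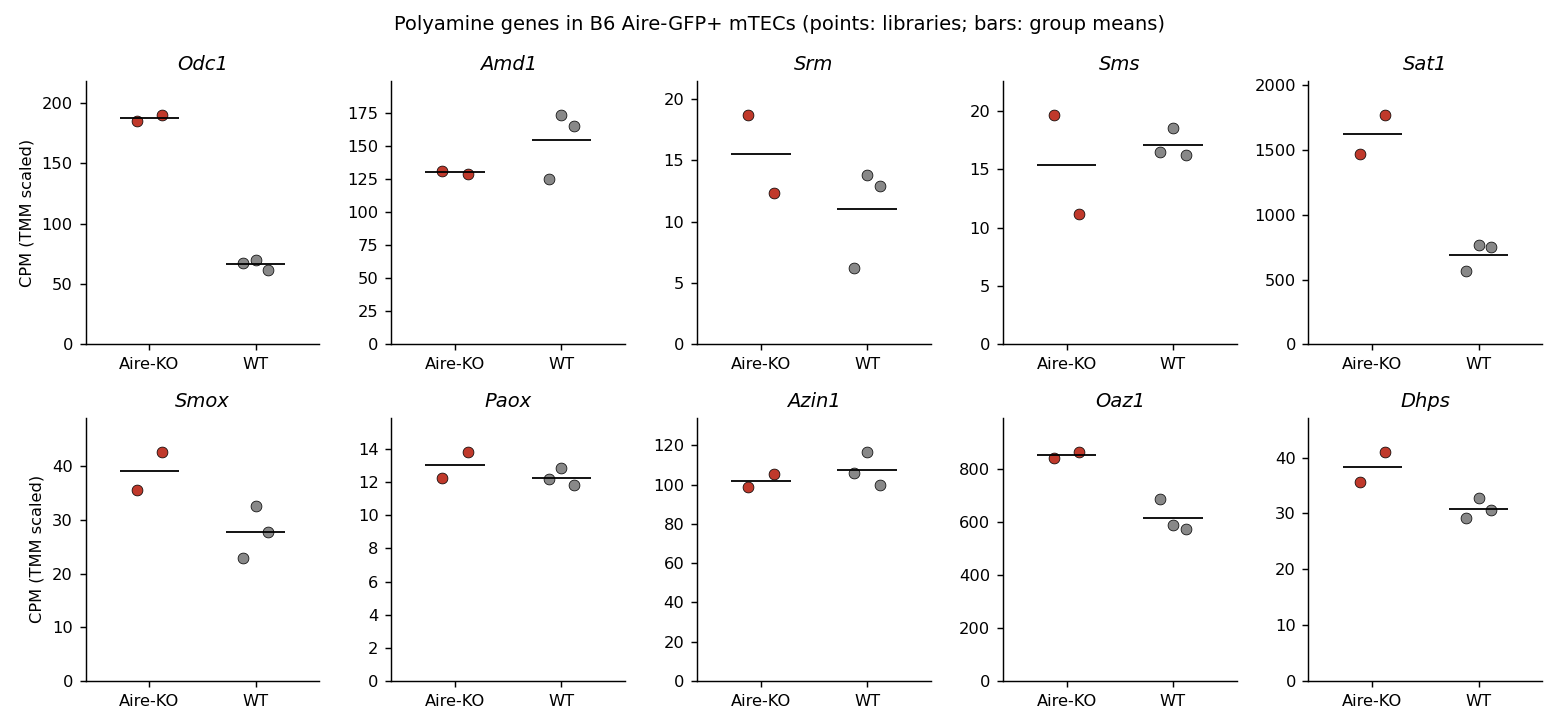
Normalised counts (CPM) of the 10 polyamine genes in the B6 Aire-GFP+ libraries, Aire-KO (2 points) left of WT (3 points), 1 panel per gene. Odc1 stands at 185 and 190 CPM in Aire-KO against 61.5 to 69.9 CPM in WT, Sat1 and Oaz1 are also higher in every Aire-KO library, and Amd1, Azin1, Paox, Sms and Srm overlap.

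The authors' TPM values, which divide by transcript length and by the sum over all transcripts, put the contrast lower. Odc1 averaged 96.8 ± 6.44 TPM in Aire-KO (SD, n = 2) and 49.9 ± 2.52 TPM in WT libraries (SD, n = 3). Sat1 averaged 1333 ± 160 TPM in Aire-KO and 840 ± 161 TPM in WT libraries. Oaz1 averaged 1079 ± 36.3 TPM in Aire-KO and 1115 ± 120 TPM in WT libraries, and the 2 groups overlapped on this scale.

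None of the other synthesis genes was called higher in Aire-GFP+ cells, and a difference from Odc1 was not tested. Amd1 had 131 and 129 CPM in Aire-KO against 125, 173 and 165 CPM in WT libraries, and WT replicate 1 lay below both Aire-KO libraries. Its fold was 0.842 (0.660 to 1.07, adjusted p = 0.223), and it was called lower with unscaled library totals (log2 −0.65, adjusted p = 0.0132), on log2(TPM + 1) values (−0.82, adjusted p = 0.0204) and without WT replicate 1 (−0.38, adjusted p = 0.0279). Srm (fold 1.39, 0.774 to 2.51) and Sms (0.898, 0.580 to 1.39) had wide intervals that included 1. Azin1, which opposes antizyme, had 98.5 and 105 CPM in Aire-KO against 106, 117 and 99.8 CPM in WT libraries and overlapped. Its fold was 0.950 (0.781 to 1.16), and it was called lower only with unscaled totals (log2 −0.47, adjusted p = 0.0165) and on log2(TPM + 1) values (−0.68, adjusted p = 0.0110).

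Of the oxidases, Smox had 35.6 and 42.7 CPM in Aire-KO against 22.9, 32.6 and 27.8 CPM in WT Aire-GFP+ libraries. Both Aire-KO libraries were above all 3 WT libraries, and the test missed the threshold (fold 1.41, 1.03 to 1.92, adjusted p = 0.0743). Paox overlapped (fold 1.06, 0.735 to 1.54). Dhps had 35.7 and 41.0 CPM in Aire-KO against 29.2, 32.8 and 30.5 CPM in WT libraries, also without overlap and without a call (fold 1.24, 0.968 to 1.60, adjusted p = 0.143). With Odc1, Sat1 and Oaz1, the groups did not overlap for 5 of 10 members, beside 63.9% of all genes. Paox and Dhps overlap another gene on the opposite strand, Echs1 and Wdr83, and the libraries carried no strand, so their counts are uncertain. The same holds for Azin1 and Gm49077.

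**Figure D4:**
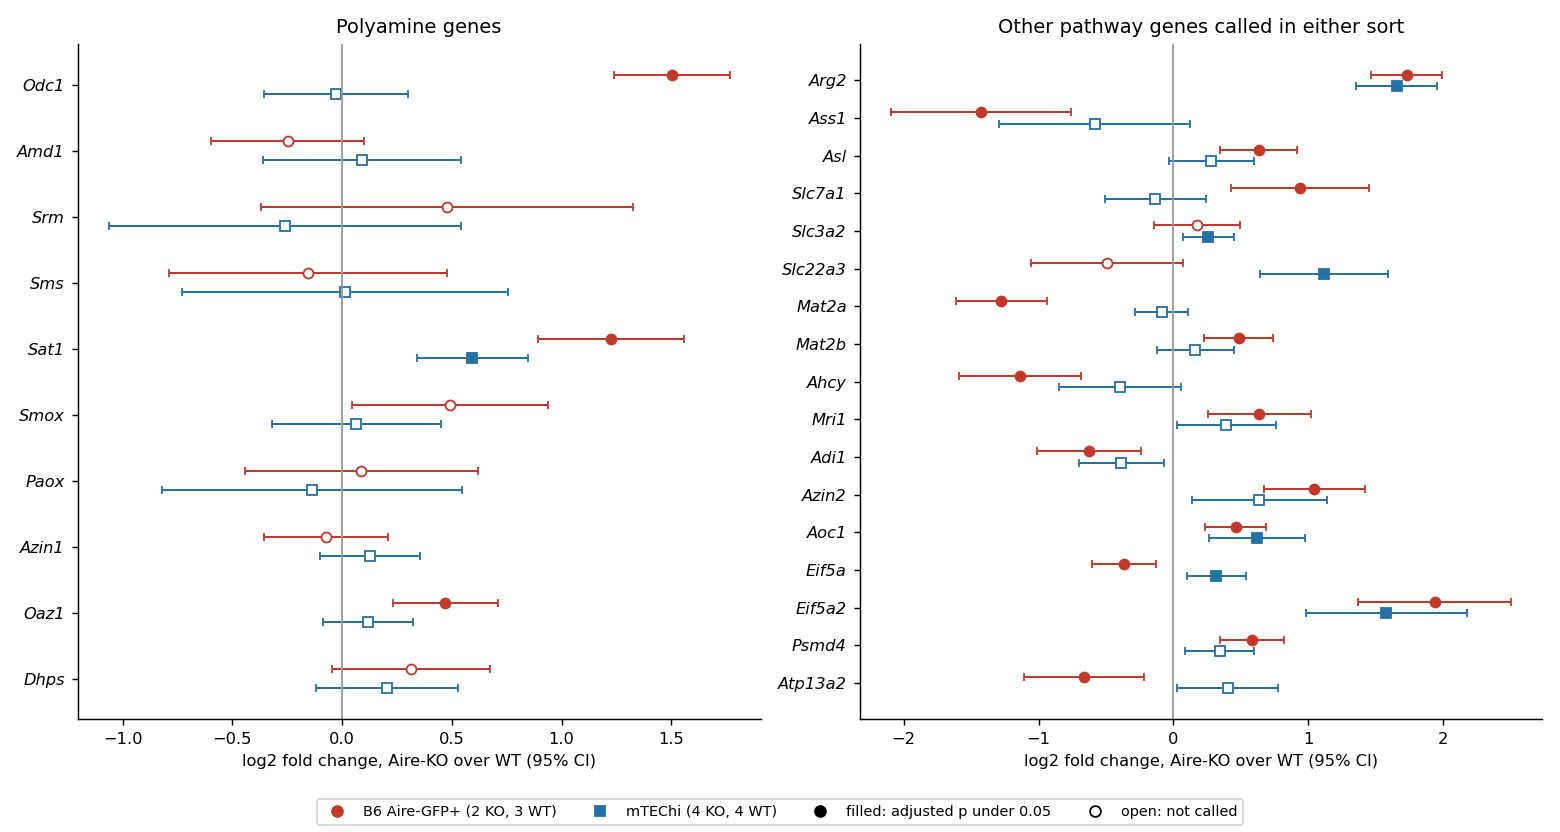
Log2 fold change, Aire-KO over WT, with 95% intervals of the edgeR fit, for the 10 polyamine genes (left) and for 17 other genes of the pathway called in either sort (right, leaving out genes such as Agmat, Amd2, Mycn and Oaz3, which had few or no reads in a group), in mTEChi over both treatments and in B6 Aire-GFP+ mTECs; filled points are called. Sat1 is called higher in both sorts, at 0.59 and 1.23, and Odc1 in Aire-GFP+ cells only, at 1.50 against −0.03 in mTEChi; the difference between the sorts was not tested.

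Markers of other cells moved with the genotype in Aire-GFP+ libraries. The cortical epithelial list summed to 2339 to 2351 CPM in Aire-KO against 624 to 721 CPM in WT libraries, nearly all of it Ccl25 (2252 to 2263 CPM against 541 to 649 CPM), while Psmb11, the proteasome subunit that defines cortical epithelium, had 7.29 to 9.16 CPM against 15.3 to 32.3 CPM. Of the 4 cortical genes 2 were called higher and 1 lower. The macrophage and dendritic list summed to 2149 to 2155 CPM in Aire-KO against 1004 to 1399 CPM in WT libraries, of which Lyz2 made 2126 to 2135 CPM against 889 to 1332 CPM; 1 of its 6 genes was called higher and 4 lower. The fibroblast list summed to 281 to 363 CPM in Aire-KO against 96.5 to 148 CPM in WT libraries, with Dcn at 233 to 313 CPM against 41.0 to 49.2 CPM, and 3 of its 7 tested genes were called higher and 2 lower. Cell cycle genes summed to 840 to 1154 CPM in Aire-KO against 1152 to 1406 CPM in WT libraries, and of 18 genes 1 was called higher and 7 lower. Thymocyte markers summed to 32.7 to 50.8 CPM in Aire-KO against 61.0 to 86.1 CPM in WT libraries. Erythroid markers ran from 129 to 1458 CPM in Aire-KO against 338 to 639 CPM in WT libraries. B cell markers summed to 75.1 to 87.5 CPM in Aire-KO against 40.4 to 47.4 CPM in WT libraries. Of the 4 B cell genes 1 was called higher and 1 lower. The 13 mTEC markers themselves, Aire among them, summed to 74046 to 77765 CPM in Aire-KO against 38641 to 40465 CPM in WT Aire-GFP+ libraries. In mTEChi they summed to 62408 to 65606 CPM against 34270 to 36598 CPM. Most of these sums came from the MHC class II genes H2-Ab1, H2-Aa and Cd74, with H2-Ab1 alone at 18510 to 44998 CPM over the Aire-GFP+ libraries. Of the 13 genes 7 were called higher and 2 lower in Aire-GFP+ cells, and 9 higher and 1 lower in mTEChi. In mTEChi the cortical list summed to 1037 to 1224 CPM in Aire-KO against 482 to 729 CPM in WT libraries. Ccl25 had 826 to 883 CPM against 344 to 438 CPM, Psmb11 overlapped, and 1 of the 4 genes was called higher and 0 lower. The fibroblast sums overlapped in mTEChi, at 192 to 238 CPM in Aire-KO against 190 to 377 CPM in WT libraries. Col1a1 had 0.345 to 5.18 CPM against 60.5 to 107 CPM, while Dcn had 132 to 175 CPM against 50.4 to 103 CPM. Of the 8 fibroblast genes 0 were called higher and 3 lower. Their part in the values of Odc1, Sat1 and Oaz1 was not tested.

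The shares of the Sat1 transcripts in the authors' kallisto estimates also differed between the libraries, with the full-length form the largest in both genotypes. In mouse Sat1, an extra exon with a stop codon yields a transcript removed by nonsense-mediated decay, a form known to be favoured when polyamines are scarce. Transcript Sat1-207 of the GENCODE annotation carries such an exon of 110 bases at chrX:155215121-155215230 (GRCm38, − strand), printed here with the last 10 bases of the exon before it and its own first 20 bases, the stop codon in capitals.
Sat1-207 exon junction: acccctgaaggttacagtctcTAGcttcgc
The stop begins at base 12 of the extra exon and leaves 71 codons before it, against 171 codons in the full-length Sat1-201.

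Sat1-207 took 11.9% and 11.2% of the estimated counts of Sat1 in Aire-KO against 4.40%, 7.11% and 6.19% in WT Aire-GFP+ libraries, with no overlap. The retained-intron form Sat1-205 took 21.5% and 18.4% in Aire-KO against 33.8%, 38.3% and 38.8% in WT libraries, also without overlap. The full-length Sat1-201 took 62.8% and 66.0% in Aire-KO against 57.9%, 49.0% and 49.4% in WT libraries. With 2 against 3 libraries the smallest p of the exact two-sided permutation test is 0.1, which Sat1-207 and Sat1-205 reached (0.2 for Sat1-201), so no share could pass 0.05.

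In amount, Sat1-201 averaged 857 ± 130 TPM in Aire-KO (SD, n = 2) and 420 ± 40.8 TPM in WT libraries (SD, n = 3), and Sat1-207 averaged 138 ± 10.5 TPM in Aire-KO and 44.4 ± 16.8 TPM in WT libraries. Both forms were thus higher in Aire-KO libraries. Shares of other members' transcripts separated as well; for example, Azin1-201 took 41.0% ± 19.2 in Aire-KO (SD, n = 2) and 20.4% ± 3.24 in WT libraries (SD, n = 3) and Smox-213 took 20.2% ± 2.84 in Aire-KO and 8.19% ± 4.13 in WT libraries, each with an exact p of 0.1. For Odc1 the shares overlapped: its decay-prone transcript Odc1-205 took 61.6% ± 2.13 in Aire-KO and 59.2% ± 3.78 in WT libraries. Reads shared by overlapping transcripts are divided by the estimate, so these shares are less certain than the gene totals.

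**Figure D5:**
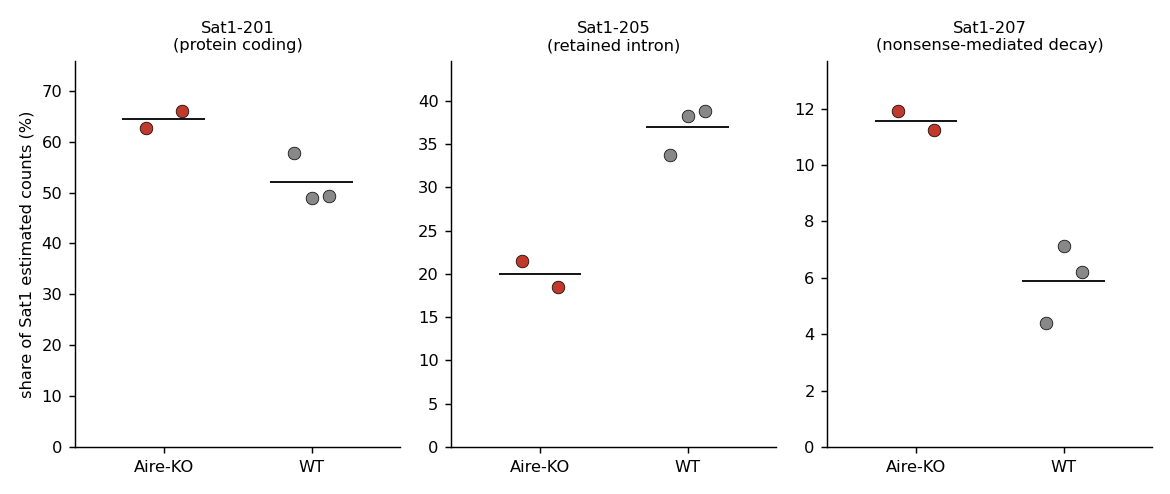
Share of Sat1 transcripts, in percent of the gene's estimated counts, in each Aire-GFP+ library, Aire-KO left of WT, for Sat1-201, the retained-intron form Sat1-205 and the decay-prone form Sat1-207. Sat1-205 lies at 18.4% to 21.5% in Aire-KO against 33.8% to 38.8% in WT libraries, and Sat1-207 at 11.2% to 11.9% against 4.40% to 7.11%.

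Among the other pathway genes, Arg2 and Eif5a2, which supply ornithine and carry hypusine, had the highest folds of those called higher in Aire-KO cells in both sorts. Arg2, the mitochondrial arginase that makes ornithine from arginine, had 343, 316, 321 and 280 CPM in Aire-KO mTEChi against 95.9, 99.0, 87.0 and 118 CPM in WT mTEChi. In Aire-GFP+ cells it had 593 and 699 CPM in Aire-KO against 183, 189 and 213 CPM in WT libraries. The groups lay far apart in both sorts. Arg2 was 3.15-fold higher in mTEChi (2.56 to 3.87, adjusted p = 2.65e-06) and 3.31-fold higher in Aire-GFP+ cells (2.76 to 3.98, adjusted p = 5.23e-05).

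Eif5a2, the second and usually scarcer isoform of the hypusine-bearing factor, had 47.1, 56.9, 53.4 and 21.4 CPM in Aire-KO mTEChi against 17.3, 19.7, 13.5 and 9.70 CPM in WT mTEChi. It had 25.3 and 27.5 CPM in Aire-KO against 5.25, 7.93 and 7.37 CPM in WT Aire-GFP+ libraries. No Aire-KO library fell into the WT range, although 1 Aire-KO library with PBS lay close to it. The folds were 2.99 (1.97 to 4.52, adjusted p = 0.00105) and 3.83 (2.58 to 5.68, adjusted p = 7.33e-04). Eif5a, the main isoform, went opposite ways: 665 to 905 CPM in Aire-KO against 544 to 671 CPM in WT mTEChi (1.25-fold, adjusted p = 0.0355) and 739 to 788 CPM against 891 to 1052 CPM in Aire-GFP+ cells (0.775-fold, adjusted p = 0.0218). The Eif5a call in mTEChi was lost with unscaled library totals, with DESeq2's size factors and in 5 of the 8 fits that left out a spermidine or PBS library (largest adjusted p = 0.350 in edgeR). The Eif5a call in Aire-GFP+ cells was lost with the replicate block and in 4 of the 5 fits that left out a library.

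In all, 9 of the 35 pathway genes were called in mTEChi over both treatments, 6 higher and 3 lower, beside 22.8% of all genes called (10.3% higher, 12.5% lower). Beside Arg2, Eif5a2 and Eif5a, the higher ones were Slc22a3, an organic cation transporter (2.17-fold), Aoc1, the secreted diamine oxidase (1.54-fold), and Slc3a2, a subunit of amino-acid exchangers (1.20-fold, which lost its call in most alternatives). The lower ones included genes with few reads: the testis antizyme Oaz3 had 0 reads per Aire-KO library against 1 to 13 per WT library, and Agmat, annotated as agmatinase, had 1 against 0 to 19. With unscaled totals the split was 3 higher and 6 lower. In the PBS libraries alone 5 of 35 were called, beside 10.3% of all genes, and Arg2, Eif5a2, Slc22a3 and Enoph1 were the 4 higher ones.

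In Aire-GFP+ cells 18 of the 35 were called, 9 higher and 9 lower, beside 41.3% of all genes (19.0% higher, 22.3% lower), and with unscaled totals 3 higher and 14 lower. The higher ones included Azin2, a second antizyme inhibitor (2.06-fold), Slc7a1, a carrier of arginine and other cationic amino acids (1.91-fold), Asl, the last enzyme of arginine synthesis (1.55-fold), and the proteasome subunit Psmd4 (1.50-fold), beside Mri1 (1.56-fold) of methionine salvage and Mat2b (1.40-fold), the regulatory partner of Mat2a. Slc7a1, Asl, Psmd4, Mri1 and Mat2b lost their call with unscaled library totals. The lower ones included the methionine-cycle genes Mat2a, which makes S-adenosylmethionine (54.0 and 55.0 CPM in Aire-KO against 116, 130 and 151 CPM in WT libraries, 0.412-fold), and Ahcy (0.454-fold), and Ass1 of arginine synthesis (0.371-fold), beside Adi1 of methionine salvage (0.648-fold) and the lysosomal polyamine exporter Atp13a2 (0.631-fold). Mat2a lost its call when the edgeR fit allowed for transcript length (adjusted p = 0.0799). Its log2 fold change ran from −1.68 to −0.39 over the alternatives. Amd2, a near-copy of Amd1, had 9 and 15 reads in Aire-KO against 9, 283 and 165 in WT libraries, and Mycn, a Myc-family factor, had 8 and 5 against 13, 89 and 89. Of the called genes, Arg2, Eif5a2 and Aoc1 were higher in both sorts, which is 3 of the 9 called in mTEChi and 3 of the 18 called in Aire-GFP+ cells. Aoc1 lost its call in both sorts with unscaled library totals, among other alternatives. Arg2, Eif5a2, Ahcy and Ass1 kept their Aire-GFP+ call in every alternative run. Arg2, Eif5a2, Slc22a3 and 1 gene not reported here by name kept their mTEChi call. That unnamed gene was called lower in both sorts.

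Topotecan left the members below the threshold, with Sat1, Odc1 and Amd1 at lower values. Sat1 had 380 and 329 CPM in topotecan libraries against 391 and 521 CPM in DMSO libraries, Odc1 28.2 and 34.4 CPM against 42.7 and 38.4 CPM, and Amd1 48.0 and 32.5 CPM against 48.7 and 57.8 CPM. For all 3 genes both topotecan libraries lay below both DMSO libraries, narrowly for Sat1 and Amd1. These were the 3 of 10 members whose groups did not overlap, beside 39.7% of all genes. The folds were 0.778 for Sat1 (0.606 to 0.998, adjusted p = 0.357 in edgeR), 0.772 for Odc1 (0.565 to 1.05, adjusted p = 0.453) and 0.756 for Amd1 (0.491 to 1.16, adjusted p = 0.574). None of the 10 members was called, beside 0.652% of all genes (0.195% higher and 0.456% lower). The 120 calls over all genes became 1 with that experiment's own libraries, 45 without DMSO replicate 1, 60 with limma-voom and 415 with DESeq2. Of the members only Sat1 had an unadjusted p under 0.05 (0.0484 in the edgeR fit), beside 2566 of all 18418 genes, so such values were common. The 13 mTEC markers summed to 21412 to 23586 CPM in topotecan against 26903 to 28133 CPM in DMSO libraries, with 2 called lower. Cell cycle genes summed to 1005 to 1061 CPM against 1273 to 1917 CPM. Macrophage and dendritic markers summed to 1558 to 1593 CPM against 1166 to 1288 CPM, and fibroblast markers to 170 to 1389 CPM against 378 to 745 CPM. No gene of the cell cycle, macrophage and fibroblast lists was called. The part of these lists in the lower values was not tested. None of the 35 other pathway genes passed, and 5 had an unadjusted p under 0.05, beside the 2566 of all 18418 genes.

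In Nfe2l2 fl/fl mTEChi no member passed either, beside 0% of all genes called and with 0 members at an unadjusted p under 0.05 (973 of all 18418 genes). Dhps had 38.2 and 34.6 CPM in fl/fl libraries against 42.7 and 50.5 CPM in +/+ libraries (fold 0.781, 0.576 to 1.06), and Srm 17.5 and 19.8 CPM against 27.8 and 25.6 CPM (fold 0.700, 0.341 to 1.44). Both genes lay lower in both fl/fl libraries, as did Sms (5.92 and 5.30 CPM against 7.86 and 6.75 CPM), without passing (adjusted p = 1.00 for each in edgeR). The groups did not overlap for these 3 of 10 members, beside 33.9% of all genes. Erythroid markers summed to 90.8 to 132 CPM in fl/fl against 238 to 308 CPM in +/+ libraries. Cell cycle genes summed to 1170 to 1286 CPM against 1296 to 1579 CPM. Macrophage and dendritic markers summed to 1081 to 1156 CPM against 1246 to 1291 CPM. Endothelial markers were also lower, and the 13 mTEC markers higher, at 50362 to 50630 CPM against 46653 to 47689 CPM. No gene of these lists was called, and their part was not tested. None of the 35 other pathway genes passed, and 0 had an unadjusted p under 0.05. Odc1 had 50.2 and 55.0 CPM in fl/fl against 52.5 and 40.9 CPM in +/+ libraries and Sat1 561 and 636 CPM against 714 and 537 CPM. Both overlapped, with folds of 1.13 (0.837 to 1.51) and 0.956 (0.748 to 1.22).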

How the data were processed

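RNA of 1000 sorted cells per library was read with Smart-seq2 and Nextera XT, without molecular identifiers or strand, per the labels' protocols. For mTEChi the authors deposited raw gene counts, and for Aire-GFP+ cells kallisto's estimated counts and TPM per transcript; STAR, featureCounts, kallisto and the mm10 build appear in the submitters' processing notes, without kallisto's index. Here 116816 of 118489 transcripts were matched to gene symbols in the GENCODE annotation, and their estimated counts were summed per symbol and rounded. Genes with enough reads for edgeR's filter were tested (18418 in mTEChi, 17923 in Aire-GFP+ cells; all 10 members passed) with TMM scaling and edgeR 4.0.16's quasi-likelihood test in R 4.3.3, adjusted over all genes, at an adjusted p of 0.05. All 16 mTEChi libraries entered 1 fit. CPM are counts per 1000000 with TMM factors.

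The members and the gene lists were chosen with earlier results of these data known. The genes named are the 10 members, the pathway genes whose values pass the test in a comparison, and genes a sentence singles out; 1 called pathway gene is counted but not reported here by name. Alternatives were unscaled totals, DESeq2 1.42.0's size factors and test, limma-voom (limma 3.58.1), no filter, a replicate block, the experiment's own libraries, summed near-identical copies (Sms-ps, Oaz1-ps, Amd2), a length offset and each library left out. Whether replicate numbers pair the samples is not stated in the labels. NOD and F1 samples were not analysed here. The spermidine intervals were widest for Sms, Srm and Paox, and intervals cover the spread between these libraries.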

Additional observations from a re-analysis of the deposited data

How the results depend on the processing

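Of 1220 values of single members under the alternatives, 1208 kept their side of the threshold; 6 calls were lost, 5 were gained and 1 called value changed sign (Oaz1 in Aire-GFP+ cells on log2(TPM + 1) values, −0.042). The count of members called in Aire-KO against WT mTEChi with PBS alone was 1, and 0 with unscaled library totals and in each fit that left out 1 library (0 to 0); fewer samples entered those fits, and the cause under unscaled totals was not tested. In Aire-GFP+ cells, leaving out 1 library gave 3 to 4 called members. The fit with the replicate block changed no member's call: it too called 0 members with spermidine, 1 in Aire-KO mTEChi and 3 in Aire-GFP+ cells. The labels do not say whether replicate numbers pair the samples. Same-numbered libraries deviated together with correlations of −0.03 to 0.14, which cannot settle pairing with so few libraries per group. Summing near-identical copies changed no member's call, although Sms-ps held 41.6% of the summed counts of Sms and its copy in Aire-GFP+ cells. Among the called pathway genes, 3 values changed sign: Agmat in mTEChi without spermidine WT replicate 2 (0.13; −3.59 to 0.13 over the fits that left out 1 library), and Aoc1 (−0.095) and Mat2b (−0.032) in Aire-GFP+ cells on log2(TPM + 1) values; the cause was not tested. Leaving out 1 library gave 5 to 8 called pathway genes in mTEChi, against 9, the fewest without spermidine Aire-KO replicate 1, and 9 to 18 in Aire-GFP+ cells, against 18, the fewest without Aire-KO replicate 1. With PBS alone 5 were called, 1 to 3 in the fits that left out a library, 2 with limma-voom and 8 with that experiment's own libraries. Over all genes, spermidine against PBS gave 99 calls without the filter on low counts, against 0.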
